A study of Mus musculus with 24 samples.

Results

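Nuclear-encoded genes of the mitochondrial respiratory chain were followed in the hippocampus of ageing Tg2576 mice after vehicle, vorinostat, tadalafil, both drugs together, or CM-414. The genes were taken by name from the array annotation: protein-coding genes with their own probe set whose symbol begins with Ndufa, Ndufb, Ndufs, Ndufv, Sdh, Uqcr, Cox4, Cox5, Cox6, Cox7, Cox8 or Atp5. Of 89 such genes, 87 had a log2 signal above 4 in at least 2 arrays of each group, out of 17089 coding genes that met this filter. They comprised 30 genes of complex I, 4 of complex II, 7 of complex III, 17 of complex IV, 17 of complex V and 12 assembly factors, with Ndufa4 and Ndufa4l2 counted in complex IV. The filter left out Cox8c and Cox7b2, whose limiting values were 3.61 and 3.90, and the members nearest to it on the other side were Cox8b and Cox6b2 at 5.37 and 5.77.

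The respiratory chain sits in the inner mitochondrial membrane. Complexes I and II pass electrons from NADH and succinate to ubiquinone, complex III passes them on to cytochrome c, and complex IV to oxygen; complexes I, III and IV pump protons, and complex V, the ATP synthase, uses the resulting gradient to make ATP. Most subunits are encoded in the nucleus and imported, while a small core set is encoded by mitochondrial DNA, so that the 2 genomes have to supply matching parts. Neurons depend heavily on this pathway to restore ion gradients after synaptic activity, and reduced complex IV activity has long been described in Alzheimer's disease.

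All arrays came from Tg2576 mice, which carry human APP with the Swedish mutation under the prion promoter (strain B6.Cg-Tg(APPswe)E1-2Dbo/J in the labels), aged 16 to 18 months, and no wild-type arrays were used here. By the labels' protocol, which is the same for all 24 arrays, mice were treated for 4 weeks and killed after a 4-week washout that ended with a reversal water maze, so the RNA was sampled after dosing had stopped. The groups were vehicle (7 arrays, described as saline in the labels), vorinostat, an inhibitor of histone deacetylases also called SAHA (3 arrays, 12.5 mg/kg), tadalafil, an inhibitor of phosphodiesterase 5 (3 arrays, 1 mg/kg), vorinostat with tadalafil (7 arrays, called the combination below) and CM-414, a compound known here by its code name (4 arrays). The labels call the arrays biological replicates of hippocampus and name no dose for CM-414. All comparisons with vehicle share the 7 vehicle arrays.

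The 24 arrays had medians of 5.9 to 5.98 on the log2 scale. They fell into 2 sets of 12 by the small nucleolar RNA Snord13, which read 7.27 to 8.46 in the first array set and 10.35 to 11.46 in the second. Vehicle and the combination had 3 arrays in the first set and 4 in the second, vorinostat and tadalafil lay wholly in the first set and CM-414 wholly in the second. Vehicle replicate 3 and CM-414 replicate 3 carried high levels of thalamus genes, with Slc17a6 at 11.53 and 11.40 against 7.17 to 8.79 on the other 22 arrays. The hippocampal markers Prox1, of dentate granule cells, and Wfs1, of CA1 neurons, were present on every array at 7.50 to 9.45 and 8.57 to 9.82. In bulk tissue, fewer cells of a type and less RNA per cell cannot be told apart.

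Promoter sequence, which the choice by name did not use, was searched for 5 motifs. RefSeq promoter windows of 300 bases (250 before to 50 after the start, build GRCm38.p6) were matched for 73 of the 87 genes. The core of the site of NRF1, a transcription factor known for mitochondrial genes, was searched as GCGCANGCG on both strands and was present in 22 of the 73 promoters (30.1%), against 11.3% of the promoters of all tested genes that could be matched and 7.03% of all 27025 genes in the table. The core of YY1 sites, AAGATGGCG, was present in 6 of 73 (8.22%, against 2.53% of tested genes and 1.64% of all genes), and the recognition core of estrogen-related receptors, TCAAGGTCA, in 2 of 73, Atp5g3 and Sdhd (2.74%, against 0.334% and 0.466%). The ETS core CCGGAAGT was present in 5 (6.85%, against 6.51% and 4.31%) and the GC box GGGCGG in 37 (50.7%, against 57.3% and 38.2%). A match of letters is a description and not a bound site, and absence says only that these letters were not in the window. The 6 promoters printed here belong to genes on which the results turn: Ndufs8 and Cox5a lay furthest below vehicle among the genes without overlap on the vorinostat arrays, Atp5j2 had the smallest p after the combination, Atp5l and Atp5g3 differed between the array sets in every check, and Sdhd had the second smallest p after CM-414. Capitals mark any of the 5 motifs on either strand, with positions counted from the start of transcription.
Ndufs8 (chr19:3912725-3913024, minus strand): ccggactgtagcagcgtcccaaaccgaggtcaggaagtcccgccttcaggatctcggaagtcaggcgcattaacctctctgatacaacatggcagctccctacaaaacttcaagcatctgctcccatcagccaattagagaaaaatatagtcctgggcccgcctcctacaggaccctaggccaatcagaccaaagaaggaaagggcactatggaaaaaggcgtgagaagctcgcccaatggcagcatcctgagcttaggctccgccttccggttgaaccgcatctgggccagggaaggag
Cox5a (chr9:57520982-57521281, plus strand): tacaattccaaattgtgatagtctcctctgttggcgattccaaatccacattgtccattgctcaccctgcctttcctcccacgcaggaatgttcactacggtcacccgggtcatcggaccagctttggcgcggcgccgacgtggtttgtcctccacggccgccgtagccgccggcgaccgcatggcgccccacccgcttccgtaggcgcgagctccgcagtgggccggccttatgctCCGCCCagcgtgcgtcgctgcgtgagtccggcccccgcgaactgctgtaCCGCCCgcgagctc
Atp5j2 (chr5:145191492-145191791, minus strand): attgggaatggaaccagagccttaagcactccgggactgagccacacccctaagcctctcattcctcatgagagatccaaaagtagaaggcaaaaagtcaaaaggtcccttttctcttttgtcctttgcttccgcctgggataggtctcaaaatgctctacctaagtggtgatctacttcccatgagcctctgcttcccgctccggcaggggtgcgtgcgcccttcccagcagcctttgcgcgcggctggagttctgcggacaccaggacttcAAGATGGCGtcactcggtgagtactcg
Atp5l (chr9:44920693-44920992, minus strand): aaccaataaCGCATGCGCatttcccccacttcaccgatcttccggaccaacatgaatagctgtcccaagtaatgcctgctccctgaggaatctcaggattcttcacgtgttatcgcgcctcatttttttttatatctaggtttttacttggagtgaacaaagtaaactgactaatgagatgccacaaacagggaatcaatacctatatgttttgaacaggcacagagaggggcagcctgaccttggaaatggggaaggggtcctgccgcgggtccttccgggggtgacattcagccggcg
Atp5g3 (chr2:73911277-73911576, minus strand): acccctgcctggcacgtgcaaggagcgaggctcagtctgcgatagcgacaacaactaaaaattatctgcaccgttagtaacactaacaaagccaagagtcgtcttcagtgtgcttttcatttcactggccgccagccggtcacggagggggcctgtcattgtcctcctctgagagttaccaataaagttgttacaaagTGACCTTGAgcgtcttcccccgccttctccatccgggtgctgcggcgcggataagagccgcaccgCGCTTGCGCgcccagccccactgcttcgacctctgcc
Sdhd (chr9:50603800-50604099, minus strand): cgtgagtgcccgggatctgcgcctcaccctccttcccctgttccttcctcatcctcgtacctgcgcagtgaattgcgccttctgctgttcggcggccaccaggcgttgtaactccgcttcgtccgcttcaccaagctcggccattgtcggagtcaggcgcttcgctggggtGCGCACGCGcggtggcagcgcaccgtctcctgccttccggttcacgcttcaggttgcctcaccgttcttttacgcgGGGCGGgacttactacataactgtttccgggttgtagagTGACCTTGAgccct
The Ndufs8 window held none of the 5 motifs. Cox5a had 2 GC boxes, Atp5j2 the YY1 core beginning 24 bases after the start, Atp5l an NRF1 core far upstream, Atp5g3 an NRF1 core beginning 14 bases after the start and the receptor core ahead of the start, and Sdhd an NRF1 core, a GC box and the receptor core. Of the genes with an NRF1 core, 14 of 22 lay below vehicle on the vorinostat arrays with a median log2 difference of -0.055, and of the matched genes without it 45 of 51 with a median of -0.11, a description that was not tested. After CM-414 the order was the other way, with 17 of 22 below vehicle with the core (median -0.087) and 29 of 51 without it (median -0.031). The second array set, which held all CM-414 arrays, gave the same order against the first. There 16 of 22 were lower with the core (median -0.10) and 31 of 51 without it (median -0.040). The part of the set in the CM-414 order was not tested.

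The mean signal of a chain gene over all arrays had a median of 8.46 on the log2 scale (7.02 for all genes). It ran from 5.98 (Ndufb11) to 11.92 (Ndufb9) in complex I, from 8.41 (Sdhc) to 11.03 (Sdha) in complex II, from 6.86 (Uqcrq) to 10.60 (Uqcrb) in complex III, from 5.58 (Cox8b) to 13.04 (Cox6a1) in complex IV, from 6.06 (Atp5j2) to 12.28 (Atp5b) in complex V and from 6.20 (Sdhaf3) to 8.66 (Ndufaf3) among assembly factors. The median SD of a chain gene within groups was 0.141, against 0.162 for all genes tested. Averaged over all 87 genes, the log2 signal of an array ran from 8.47 to 8.72. The vehicle arrays lay at 8.53 to 8.72 with a median of 8.63, vorinostat at 8.52, 8.47 and 8.53, tadalafil at 8.67, 8.49 and 8.56, the combination at 8.51 to 8.64 with a median of 8.60, and CM-414 at 8.58, 8.55, 8.70 and 8.50. The 3 vorinostat arrays were below every vehicle array, the highest of them only just, and the 2 highest arrays of the study were the thalamus-rich vehicle 3 (8.72) and CM-414 3 (8.70). Those 2 arrays held the highest value of all 24 for 22 and 20 of the 87 genes (25.3% and 23.0%, against 10.1% and 12.4% of all genes). Among the group means, vorinostat had the lowest of the 5 for 40 chain genes (27.1% of all genes), CM-414 for 29 (30.4% of all genes) and vehicle for 2 (10.6% of all genes). Levels of different probe sets depend on their probes and were not read as amounts of RNA.

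**Figure D1:**
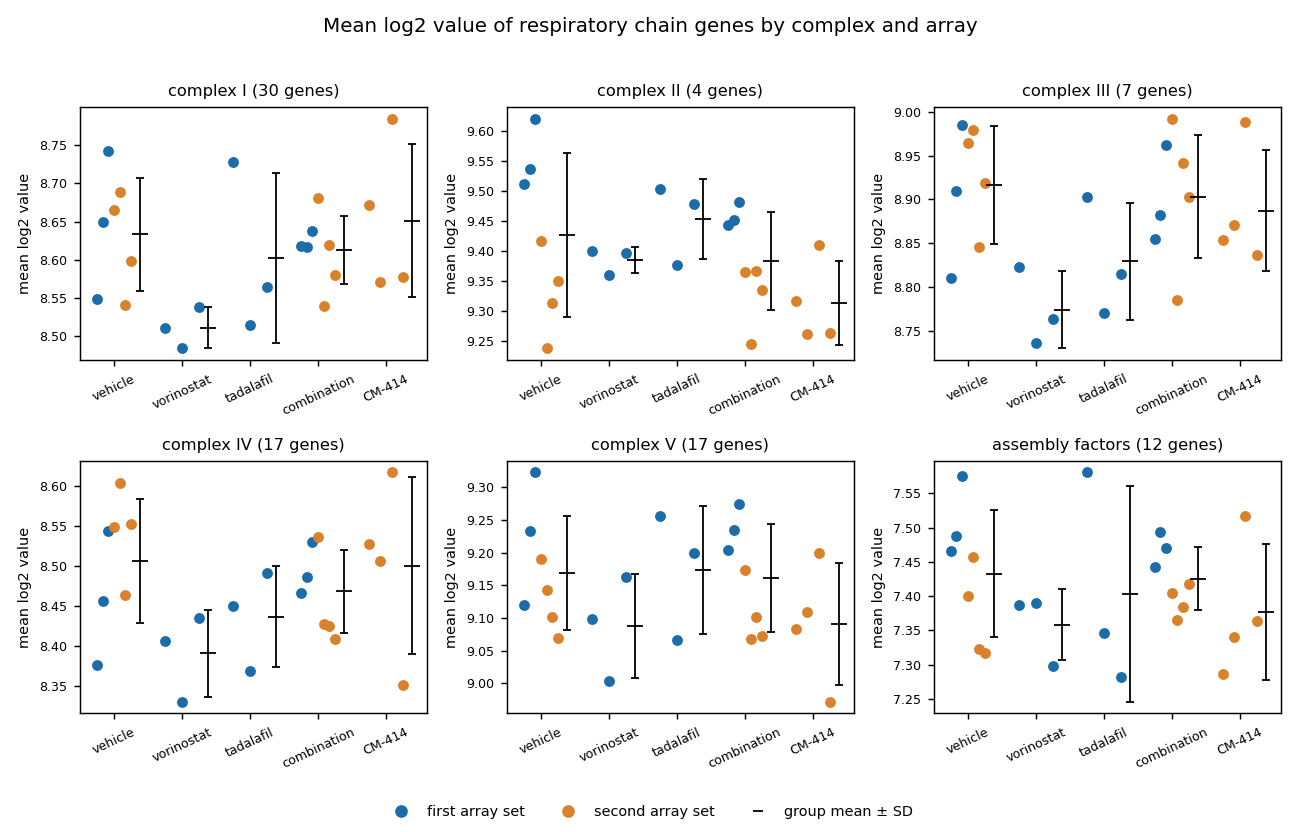
Mean log2 signal (y axis) of the genes of complexes I to V and of the assembly factors on each array, by treatment group (x axis), with points coloured by array set and black bars for the group mean ± SD. The vorinostat arrays sit low for complexes I, III and IV, while tadalafil 1 and the thalamus-rich vehicle 3 and CM-414 3 sit high in several panels.

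The question put to the vorinostat arrays was whether a deacetylase inhibitor, given alone, left chain transcripts altered after the washout. No chain gene passed the threshold of 0.05 on adjusted p in limma's test across all genes, where 0.00585% of all genes tested did. At an unadjusted p under 0.05, 18 of the 87 genes were lower and 0 higher, against 5.52% and 3.24% of all genes. In sign, 68 of the 87 lay below vehicle and 19 above, with a median log2 difference of -0.098 against -0.012 for all genes. The count below vehicle was 25 of 30 in complex I (median -0.11), 6 of 7 in complex III (-0.13), 14 of 17 in complex IV (-0.13), 13 of 17 in complex V (-0.058), 8 of 12 among assembly factors (-0.088) and 2 of 4 in complex II (-0.023). For 9 genes all 3 vorinostat arrays lay below all 7 vehicle arrays, and for 0 all lay above, against 2.31% and 1.17% of all genes.

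Ndufs8, an iron-sulphur subunit of the arm of complex I that hands electrons to ubiquinone, read 8.94, 9.25 and 9.28 on the vorinostat arrays. On the vehicle arrays it ran from 9.31 to 10.02 with a median of 9.67, so that the groups did not overlap. The log2 difference was -0.50 (SE 0.14, limma adjusted p = 0.363). Ndufb8, an accessory subunit of the membrane arm of complex I, read 6.93, 6.97 and 7.26 after vorinostat and 7.18 to 7.75 after vehicle with a median of 7.58. Vehicle 1, at 7.18, lay below the highest vorinostat array, so the groups overlapped at a log2 difference of -0.47 (SE 0.12, adjusted p = 0.336), the smallest p of the 87.

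In complex IV, Cox5a, a nuclear-encoded subunit on the matrix side, read 9.72, 9.34 and 9.65 after vorinostat and 9.80 to 10.44 after vehicle with a median of 9.93. All 3 vorinostat arrays were lower than every vehicle array, by -0.43 on average (SE 0.12, adjusted p = 0.363). Cox6b1, a subunit at the face of the enzyme where cytochrome c docks, read 8.94, 8.98 and 8.94, and vehicle ran from 8.98 to 9.61 with a median of 9.27. The vorinostat arrays lay close together at the bottom of the vehicle range, which vehicle 1 reached, with a log2 difference of -0.34 (SE 0.11, adjusted p = 0.385). Cox4i1, the common form of the regulatory subunit 4, read 10.12, 10.07 and 10.18 against 10.21 to 10.40, without overlap and with a log2 difference of -0.18 (SE 0.086, adjusted p = 0.565). Cox5b, Uqcrq of complex III, the complex I assembly factor Ndufaf3, Ndufb5, Atp5j2 of complex V and Cox7a1 also lay below vehicle without overlap, at log2 differences of -0.28, -0.34, -0.29, -0.24, -0.20 and -0.13. In the same order, the second array set, without vorinostat arrays, differed from the first within vehicle by 0.0059, 0.21, 0.23, -0.022, -0.047 and -0.080. For Ndufaf3 the highest vorinostat array (8.466) lay just below the lowest vehicle array (8.474).

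**Figure D2:**
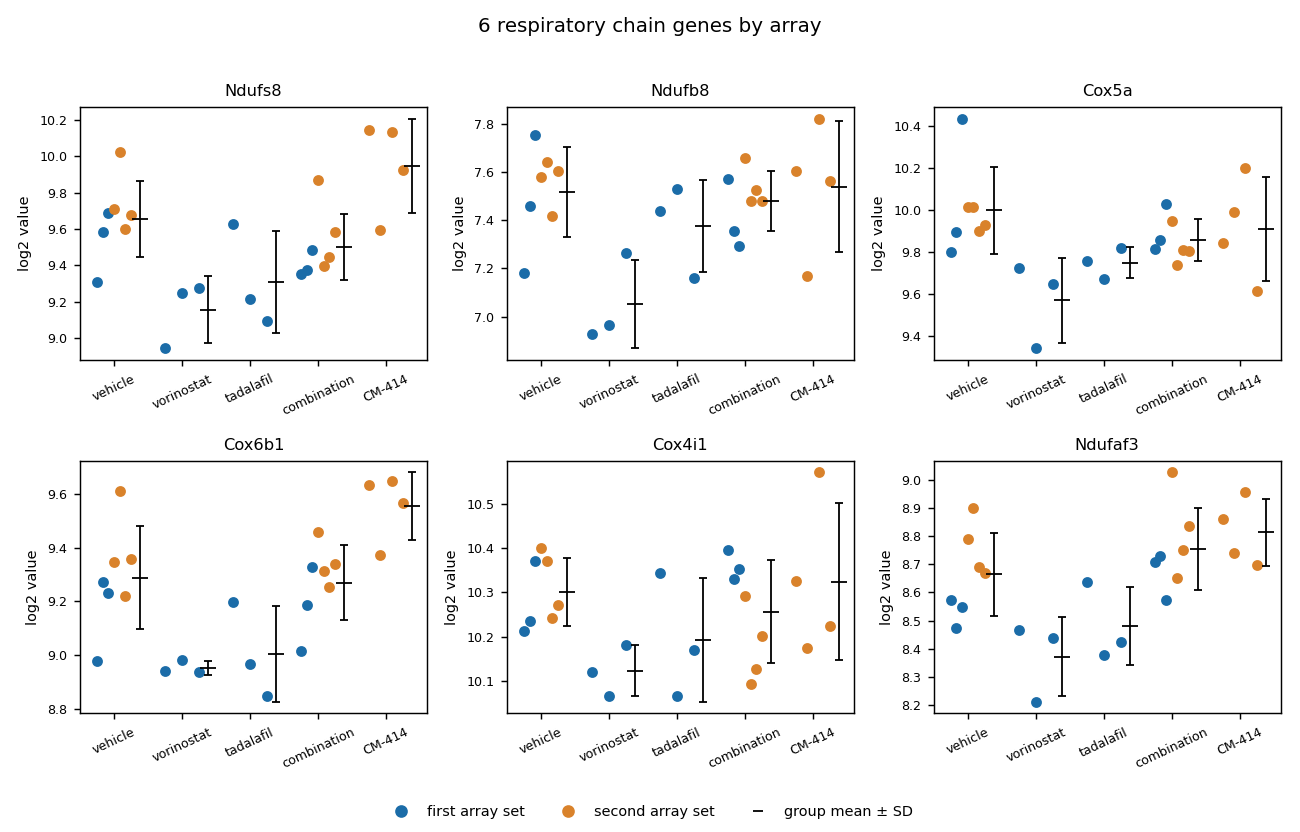
Log2 signal (y axis) of 6 chain genes on each of the 24 arrays by group (x axis), coloured by array set, with black bars for the group mean ± SD. The vorinostat points of Ndufs8, Cox5a, Cox4i1 and Ndufaf3 lie below all vehicle points, whereas for Ndufb8 and Cox6b1 vehicle 1 lies at 7.18 and 8.98, within reach of the vorinostat arrays.

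Since all vorinostat arrays belonged to the first array set, the comparison was repeated against the 3 vehicle arrays of that set. There 77 of 87 genes lay below vehicle with a median of -0.15 (all genes -0.020), and without the thalamus-rich vehicle 3 it was 72 of 87 with a median of -0.092 (all genes -0.033). The differences of Ndufs8, Ndufb8, Cox5a and Cox6b1 within the first set were -0.37, -0.41, -0.47 and -0.21, and without vehicle 3 as well -0.29, -0.27, -0.28 and -0.17. Against all vehicle arrays but vehicle 3, 64 genes lay below with a median of -0.075. Markers of other tissue parts moved with this contrast: all 12 thalamus markers lay below vehicle (array means 7.30 to 7.41 on vorinostat and 7.26 to 8.81 on vehicle arrays), as did 12 of 13 oligodendrocyte markers (8.65 to 9.13 and 8.83 to 9.70), and all 9 measured choroid plexus markers lay above (7.35 to 8.85 and 6.69 to 8.47). Their part in the lower chain signal was not tested.

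After tadalafil the chain genes lay on both sides of vehicle. None passed the adjusted p (0% of all genes did), and at an unadjusted p under 0.05 there were 6 higher and 7 lower genes, against 2.83% and 2.49% of all genes. Of the 87, 33 lay above vehicle and 54 below (median -0.034, all genes -8.1e-05). Cox7c, a small membrane subunit of complex IV, read 6.17, 6.08 and 6.32 and vehicle 5.55 to 5.96 with a median of 5.82. It lay above vehicle without overlap, at a log2 difference of 0.40 (SE 0.12, adjusted p = 0.830). Uqcrb, a complex III subunit near the ubiquinone site, read 10.36, 10.42 and 10.42 against 10.46 to 10.80 with a median of 10.71, and lay below without overlap (-0.27, SE 0.093, adjusted p = 0.908). This gene also differed between the array sets, and within the first set its difference was -0.15.

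Atp5g1, 1 of 3 genes that encode the c subunit of the ATP synthase rotor, read 7.21, 6.67 and 7.34 after tadalafil and 7.21 to 7.69 after vehicle with a median of 7.53 (-0.45, SE 0.14, adjusted p = 0.886). Tadalafil 2 was the low array and the others lay inside the lower vehicle range. Atp5c1, the gamma subunit of the central stalk, read 8.37, 8.37 and 8.54 against 8.08 to 8.39 with a median of 8.14, a log2 difference of 0.25 (SE 0.087, adjusted p = 0.908) that vehicle 3 kept from being free of overlap. The 3 tadalafil arrays disagreed in the family as a whole: without tadalafil 1 only 21 genes lay above vehicle (median -0.066), and without tadalafil 2 it was 42 (median -0.011). All 12 thalamus markers and 12 of 13 oligodendrocyte markers lay below vehicle here too, with array means of 7.30 to 7.42 and 8.83 to 9.35 on tadalafil arrays. All 10 microglia markers lay above vehicle (median 0.15, array means 8.05 to 8.17 on tadalafil and 7.63 to 8.10 on vehicle arrays). The part of these lists was not tested.

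After the combination no chain gene passed the adjusted p (0% of all genes), with 1 gene higher and 1 lower at an unadjusted p under 0.05, against 1.67% and 2.37% of all genes. Of the 87, 31 lay above vehicle and 56 below, the median being -0.024 (all genes -0.00058), and without vehicle 3 the split was 45 to 42 with a median of 0.0016. The median difference was -0.025 in complex I, -0.048 in complex II, -0.022 in complex III, -0.043 in complex IV, 0.0022 in complex V and 0.0012 among assembly factors. Atp5j2, the f subunit in the membrane part of complex V, ran from 5.56 to 6.23 with a median of 5.97 after the combination and from 6.12 to 6.36 with a median of 6.19 after vehicle. All combination arrays but combination 1 were below the vehicle range, for a log2 difference of -0.25 (SE 0.082, adjusted p = 0.995). Atp5o, which joins the catalytic head to the peripheral stalk, ran from 7.11 to 7.50 with a median of 7.33 against 7.01 to 7.39 with a median of 7.11 (0.18, SE 0.086, adjusted p = 0.995), with overlap.

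Other extremes after the combination were small. The assembly factor Ndufaf2 differed by -0.15 (SE 0.090) and Cox7a2l, a factor of supercomplexes of complexes III and IV, by -0.094 (SE 0.058), and both turned to 0.11 and 0.013 when the first array set was taken without vehicle 3. With that array kept, they differed by -0.049 and -0.033 within the first set, and by -0.22 and -0.14 within the second. In complex I the extremes were Ndufs8 (-0.15, SE 0.11) and Ndufb10 (0.11, SE 0.086), in complex III Uqcrfs1, the Rieske iron-sulphur protein (-0.10, SE 0.080), and Uqcrh (0.077), in complex IV Cox5a (-0.14, SE 0.092) and Cox8a (0.074), in complex II Sdhd (-0.073) and Sdha, the flavoprotein (-0.0014), and among assembly factors Ndufaf2 and Ndufaf3 (0.090, SE 0.077). The effect of the combination did not differ between the array sets for any chain gene on adjusted p, nor for any other gene (0 of each). All 12 thalamus and all 13 oligodendrocyte markers lay below vehicle after the combination (array means 7.15 to 7.43 and 8.45 to 9.25), and their part was not tested.

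**Figure D3:**
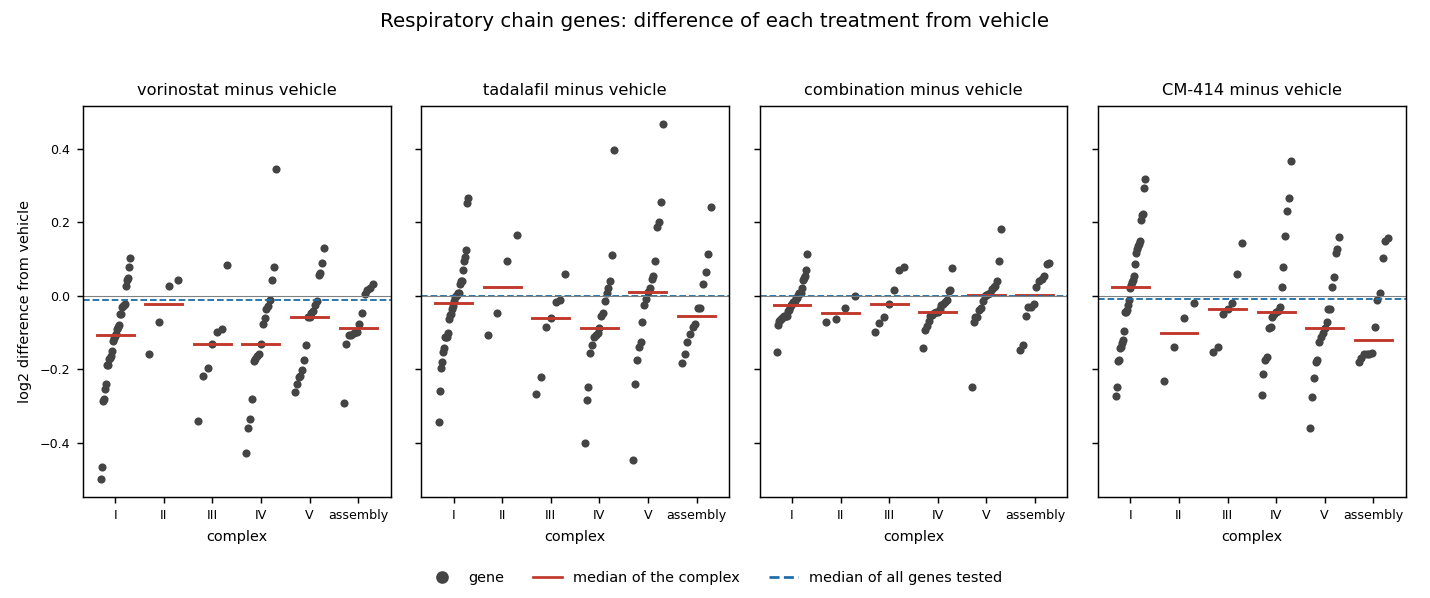
Log2 difference from vehicle (y axis) of each chain gene by complex (x axis) for the 4 treatments, with red lines for the median of a complex and a dashed blue line for the median of all genes tested. After vorinostat 68 of 87 points lie below 0, after the combination the points lie within -0.25 to 0.18, and after tadalafil and CM-414 they spread to both sides.

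CM-414 was compared with vehicle with 4 arrays, all of the second set. No chain gene passed the adjusted p (0.00585% of all genes did), and at an unadjusted p under 0.05, 5 genes were higher and 10 lower, against 5.24% and 7.37% of all genes. Of the 87, 33 lay above vehicle and 54 below (median -0.043, all genes -0.0080). Cox6a2, the muscle form of subunit 6a of complex IV, read 6.95, 6.90, 7.38 and 7.24 after CM-414 and 6.63 to 6.94 after vehicle with a median of 6.72. Only CM-414 2 lay inside the vehicle range, and the log2 difference was 0.37 (SE 0.10, adjusted p = 0.159). Without CM-414 2 it was 0.44, and Cox6a2 alone of the 87 passed the threshold, given here without the share of all genes. Ndufa11, a membrane-arm subunit of complex I, read 9.53, 9.17, 9.59 and 9.33 against 8.77 to 9.39 with a median of 9.15 (0.32, SE 0.11, adjusted p = 0.204). The vehicle arrays of the second set read 9.15, 9.39, 8.97 and 9.21 for Ndufa11, and within vehicle that set was higher by 0.22. For Cox6a2 this difference within vehicle was 0.024. Ndufv3, of the NADH-binding head of complex I, lay above vehicle without overlap, at 8.32, 8.30, 8.44 and 8.37 against 7.98 to 8.26.

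Ndufs1 and Sdhd, also among the 4 smallest p after CM-414, lay below vehicle. Ndufs1, the large iron-sulphur subunit of complex I, read 8.95, 9.33, 9.23 and 8.98 against 9.16 to 9.68 with a median of 9.41 (-0.27, SE 0.091, adjusted p = 0.199), with CM-414 1 and 4 below all vehicle arrays. Its vehicle arrays of the second set read 9.41, 9.16, 9.34 and 9.20. Within vehicle, the second set differed from the first by -0.28 for Ndufs1 and by -0.14 for Sdhd. Sdhd, a membrane anchor of succinate dehydrogenase, read 9.15, 9.11, 9.24 and 8.83 against 9.17 to 9.46 with a median of 9.34 (-0.23, SE 0.072, adjusted p = 0.179), with CM-414 3 alone inside the vehicle range. All 4 complex II genes and 8 of 12 assembly factors lay below vehicle, with medians of -0.10 and -0.12, while complex I was split 16 above to 14 below. All 4 complex II genes and 11 of 12 assembly factors were also lower in the second array set, which held every CM-414 array. The complex II mean was 9.42, 9.24, 9.31 and 9.35 on second-set vehicle arrays and 9.32, 9.26, 9.41 and 9.26 after CM-414. For assembly factors it was 7.40, 7.46, 7.32 and 7.32 against 7.29, 7.34, 7.52 and 7.36, so both overlapped. Within the second array set, against 4 vehicle arrays, 41 genes lay above vehicle, 46 lay below, and the median was -0.0099. Leaving out CM-414 3, the thalamus-rich array, gave a median of -0.074 against all vehicle arrays, and leaving out CM-414 4 gave -0.0088. Of the thalamus markers 10 of 12 lay above vehicle and all 7 CA1 markers below (array means 7.38 to 9.17 and 6.97 to 8.29 on CM-414 arrays, 7.26 to 8.81 and 7.30 to 8.55 on vehicle arrays), and their part in these values was not tested.

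The design also set the combination against each drug alone, with the arrays of the combination shared by both contrasts. Against vorinostat, 63 chain genes were higher and 24 lower after the combination (median 0.073, all genes 0.012). None passed the adjusted p (0% of all genes), and 15 were higher and 0 lower at an unadjusted p under 0.05, against 4.98% and 3.41% of all genes. Ndufaf3, at 8.57 to 9.03 with a median of 8.73 after the combination and 8.47, 8.21 and 8.44 after vorinostat, had the smallest p (0.38, SE 0.099, adjusted p = 0.323) and no overlap. Within the first array set, the only one with vorinostat arrays, the split was 74 to 13 with a median of 0.13 (all genes 0.018). Against tadalafil, 45 genes were higher and 42 lower (median 0.0027; 0% of all genes passed), and within the first set 64 and 23 (median 0.034, all genes 0.0020). Between the single drugs, 18 genes were higher and 69 lower after vorinostat than after tadalafil (median -0.070, all genes -0.015; 0% of all genes passed), with 13 higher when tadalafil 2 was left out and 32 when tadalafil 1 was. All 9 choroid plexus markers were lower after the combination than after vorinostat (median -0.69) and higher after vorinostat than after tadalafil (median 0.88). All 10 measured microglia markers were lower after vorinostat than after tadalafil (median -0.21). The array means of these lists were 6.63 to 8.65 and 7.88 to 8.12 in the combination, 7.35 to 8.85 and 7.84 to 7.98 in vorinostat and 6.74 to 8.47 and 8.05 to 8.17 in tadalafil, and their part was not tested. Between CM-414 and the combination no chain gene passed, where 0.0234% of all genes did. There were 40 genes above and 47 below (median -0.018). Without CM-414 2, 3 chain genes passed, a count given without the share of all genes. Within the second set the split was 43 to 44 (median -0.0022).

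The combination was further compared with what the effects of vorinostat and tadalafil add up to, which all share the vehicle arrays. The difference was above 0 for 65 of 87 genes with a median of 0.089 (all genes 0.012; 76 genes and 0.17 within the first array set), and at an unadjusted p under 0.05 there were 17 genes above and 3 below 0, against 5.54% and 4.66% of all genes. None passed the adjusted p, where 0.0176% of all genes did. The smallest p belonged to Ndufaf3 (0.57, SE 0.14, adjusted p = 0.209), Cox6b1 (0.60, SE 0.15, adjusted p = 0.209), Cox7b (0.75, SE 0.22, adjusted p = 0.249) and Ndufs8 (0.69, SE 0.20, adjusted p = 0.249). For these 4 genes both single-drug groups had lower means than vehicle and than the combination. In the same order, they read higher in the second array set by 0.23, 0.22, 0.205 and 0.22 within vehicle. Within the combination the second set was higher by 0.15, 0.16, 0.086 and 0.17. Of the groups in this contrast, vehicle and the combination held arrays of the second set, and the single-drug groups held none. None of these genes passed the adjusted p for the array set, and the part of the set was not tested. Unlike the family median, the differences of these 4 genes are therefore smaller within the first set than those printed. Cox7b had means of 9.21 ± 0.317 (SD, n = 7) in vehicle and 8.85 ± 0.159 (n = 3) in vorinostat. Its means were 8.80 ± 0.0579 (n = 3) in tadalafil and 9.19 ± 0.212 (n = 7) in the combination. A further, dimmer Cox7b probe set lay above vehicle after tadalafil (0.19). Both single-drug groups lay in the first array set only, where Cox7b ran from 8.64 to 9.63 on vehicle and from 8.94 to 9.50 on combination arrays, so that vehicle overlapped with both single-drug groups and the combination with vorinostat.

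Across the 5 groups at once, limma's F test passed 0 of the 87 genes on adjusted p (0.152% of all genes), and 27 had an unadjusted p under 0.05 (13.7% of all genes). Without vehicle 1, vehicle 3 or vehicle 5, 1 gene passed, and without CM-414 2 there were 2. These counts are given without the share of all genes in those fits. Cox6b1 came closest to the threshold (adjusted p = 0.0702), ahead of Ndufs8 (0.0754), Ndufaf3 (0.112) and Cox7b (0.160). Cox6b1 had group means of 9.29 ± 0.191 (SD, n = 7) in vehicle, 8.95 ± 0.0253 (n = 3) in vorinostat, 9.004 ± 0.178 (n = 3) in tadalafil, 9.27 ± 0.141 (n = 7) in the combination and 9.55 ± 0.127 (n = 4) in CM-414. Ndufs8 had the same order of groups, with 9.16 ± 0.184 in vorinostat at the bottom and 9.95 ± 0.258 in CM-414 at the top. The upper end of this order was the group of the second array set and the lower end the groups of the first, and within vehicle and the combination the second set lay above the first by 0.19 for Cox6b1 (SE 0.074, adjusted p = 0.199) and 0.20 for Ndufs8 (SE 0.11, adjusted p = 0.386).

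The contrast that did move single chain genes past the threshold was the array set. With group as a term, so that vehicle and the combination give the estimate, 9 of the 87 genes differed between the second and the first set (1.24% of all genes tested did), 7 of them lower and 2 higher in the second set (0.825% and 0.415% of all genes). In sign, 57 genes were lower and 30 higher (median -0.055, all genes -0.010), among them 11 of 12 assembly factors and all 4 complex II genes on the lower side. Atp5l, the g subunit of the membrane part of complex V, had the largest difference. In the first set it read 9.53 to 10.28 over 12 arrays and in the second 9.15 to 9.57, so the sets barely overlapped. The log2 difference was -0.64 (SE 0.088, adjusted p = 0.00102), with -0.56 within vehicle and -0.72 within the combination.

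Sdhaf3, an assembly factor of the iron-sulphur subunit of complex II, differed by -0.41 in the second set (SE 0.10, adjusted p = 0.0479), Sdhc, a membrane anchor of complex II, by -0.39 (SE 0.082, adjusted p = 0.0227), and Atp5g3, a second c subunit gene, by -0.37 (SE 0.069, adjusted p = 0.0133). Sdhc read 8.34 to 8.76 in the first set and 7.89 to 8.49 in the second. The accessory subunits of complex I Ndufa5 (-0.27), Ndufb6 (-0.23) and Ndufa10 (-0.21) were lower, with adjusted p of 0.0464, 0.0203 and 0.0436. Ndufa7, of the same complex, was higher (0.33, SE 0.072, adjusted p = 0.0254), at 7.30 to 7.70 in the first set and 7.65 to 8.12 in the second, and so was Uqcrb (0.25, SE 0.052, adjusted p = 0.0212), at 10.33 to 10.69 and 10.67 to 10.80. All 9 kept their direction in vehicle and in the combination taken apart. Atp5l and Atp5g3 passed when any of the 24 arrays was left out, Ndufb6, Sdhc and Uqcrb in 21 of 24 such fits, Ndufa7 in 18, Ndufa5 and Ndufa10 in 9 and Sdhaf3 in 6.

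The count of 9 rested on several arrays: it was 2 without vehicle 1 or vehicle 2 and 3 without combination 3. It was 4 without combination 2, and 5 without combination 4 or vehicle 7. The share of all genes is not given for these fits, and it can shift. Without vehicle 3 and CM-414 3 together, 425 genes passed, 9 of them chain genes, against 212 in the main fit. All 9 choroid plexus markers lay higher in the second set (median 0.90), and their part was not tested. The array set touched the treatment contrasts directly. Atp5l had the largest positive difference after tadalafil (0.47, SE 0.20, adjusted p = 0.917), at 10.28, 10.07 and 9.91, but the vehicle arrays of the same set read 9.71, 9.95 and 10.15 and overlapped with them. Ndufa5 lay above all vehicle arrays on the tadalafil arrays, at 7.96, 7.67 and 7.66, and the first-set vehicle arrays, at 7.66, 7.65 and 7.63, lay just below.

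**Figure D4:**
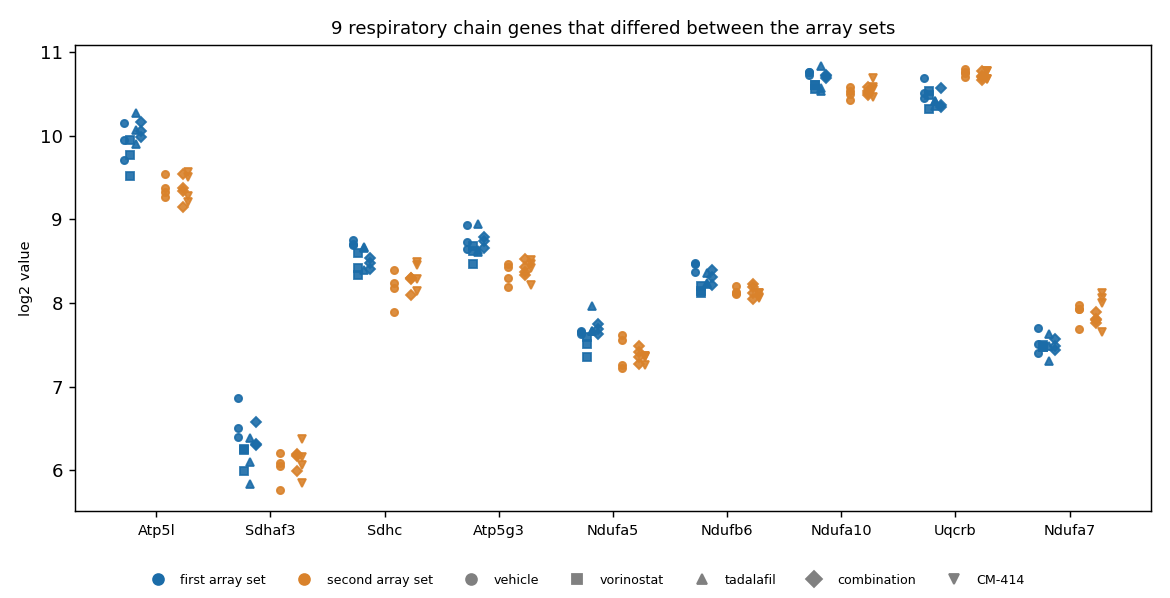
Log2 signal (y axis) of the 9 chain genes that differed between array sets (x axis), with the first set in blue and the second in orange, and a symbol for each treatment group. Atp5l shows the widest gap, at 9.53 to 10.28 in the first set and 9.15 to 9.57 in the second, and Uqcrb and Ndufa7 lie higher in the second set.

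Several complex IV subunits have a common form and a form restricted to particular tissues. The common forms Cox4i1, Cox6a1, Cox6b1, Cox7a2 and Cox8a had group means of 10.12 to 10.32, 13.00 to 13.06, 8.95 to 9.55, 9.17 to 9.34 and 11.45 to 11.56. Of the restricted forms, Cox4i2, the form known from lung and oxygen-sensing cells, had group means of 6.36 to 6.41 and Cox6b2, the testis form, of 5.76 to 5.89, and every treated group overlapped with vehicle for both. Cox7a1, the heart and muscle form of subunit 7a, lay at 5.72, 5.93 and 5.92 after vorinostat against 5.93 to 6.08 after vehicle. Ndufa4, now counted as a complex IV subunit, had group means of 10.84 to 11.09, lowest after CM-414, and its relative Ndufa4l2 of 5.87 to 6.21, lowest after vorinostat and highest after CM-414. Neither passed the adjusted p in any comparison.

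The largest spread within groups belonged to Cox8b, the muscle form of subunit 8 (SD 0.457), the complex I subunit Ndufb11 (SD 0.317) and Atp5l (SD 0.316). Cox8b ran from 5.06 to 6.37 in vehicle and read 6.13, 5.38 and 6.37 after vorinostat, with a difference of 0.34 (SE 0.29) that lay well inside the spread. Ndufb11 ran from 5.32 to 6.66 in vehicle and from 5.92 to 5.96 after vorinostat. In 10 genes a further probe set passed the filter, and its difference from vehicle had the same sign as the one used in 8 of 10 after vorinostat and after the combination, 5 after tadalafil and 4 after CM-414. For Cox5b, Cox7b and Ndufa11, which carry results above, the other probe sets differed from vehicle after vorinostat by -0.16, -0.080 and -0.44. The probe sets used differed by -0.28, -0.36 and -0.19. After tadalafil the other Cox7b probe set differed by 0.19 against -0.40 for the one used, so the signs were opposite. After the combination these values were -0.14 and -0.012. The other probe set, with a mean of 5.54 against 9.14, therefore did not repeat the lower tadalafil level behind the Cox7b value against the added effects. A further 10 probe sets that name several genes, among them Ndufs6, Cox6c, Ndufb4, Uqcr10 and Ndufb2, were left out, and related copies may share probes with the genes kept.

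After group means were taken out, chain genes varied in part together from array to array. The mean correlation over pairs of chain genes was 0.192 across 24 arrays, against 0.0050 over pairs of all genes, and it was 0.147 without vehicle 3 and CM-414 3 and 0.221 when the means of group and array set were both taken out. It was 0.267 within complex V, 0.230 among assembly factors, 0.227 within complex I, 0.223 within complex II, 0.158 within complex IV and 0.091 within complex III. These are descriptions across arrays that share labelling and scanning steps, and lists of other highly expressed housekeeping genes gave like values (0.153 for cytosolic ribosomal proteins and 0.148 for glycolysis). Cox4i1 followed the mean of the other chain genes most closely (r = 0.84), then Ndufa9 (0.79), Ndufb5 (0.79), Cox7a2 (0.78) and Cox5a (0.77). Ndufs5 (-0.25), Cox8b (-0.17), Uqcrb (-0.12), Cox7c (-0.053), Ndufa7 (-0.028) and Ndufb9 (-0.022) did not follow it.

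The mitochondrial genome supplies the other part of the chain, and 10 of its 13 protein genes had a probe set of their own. Their mean was 13.31 to 13.51 on all arrays and moved little between groups, with means of 13.42 ± 0.0400 (SD, n = 7) in vehicle, 13.42 ± 0.0194 (n = 3) in vorinostat, 13.39 ± 0.0113 (n = 3) in tadalafil, 13.40 ± 0.0609 (n = 7) in the combination and 13.37 ± 0.0389 (n = 4) in CM-414. After vorinostat 5 of the 10 lay above and 5 below vehicle (median -0.0048), where 68 of the 87 nuclear genes lay below. The extreme was ND6, at -0.30 after CM-414 (SE 0.097, adjusted p = 0.186). ND6 is a complex I subunit and the only mitochondrial protein gene on the light strand. The highest mean of any gene tested was 14.07, so the mean of the mitochondrially encoded genes lay near the top of the scale. Whether their signal could still follow differences there was not tested. Across arrays, with group means taken out, the mean of the nuclear chain genes went with that of 66 mitochondrial ribosomal proteins (r = 0.87 over 24 arrays, 0.83 without vehicle 3 and CM-414 3) and not with that of the mitochondrially encoded genes (r = -0.23 and -0.27). With thalamus markers r was 0.66 over all arrays and 0.21 without those 2. The link was not limited to mitochondrial ribosomal proteins. For mitochondrial import, citrate cycle, cytosolic ribosomal and glycolysis genes r was 0.70, 0.62, 0.61 and 0.49. Without vehicle 3 and CM-414 3 these values were 0.55, 0.37, 0.45 and 0.52. CA1 and microglia markers were among the lists on the other side (-0.54 and -0.44), but read 0.33 and 0.075 without those arrays.

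**Figure D5:**
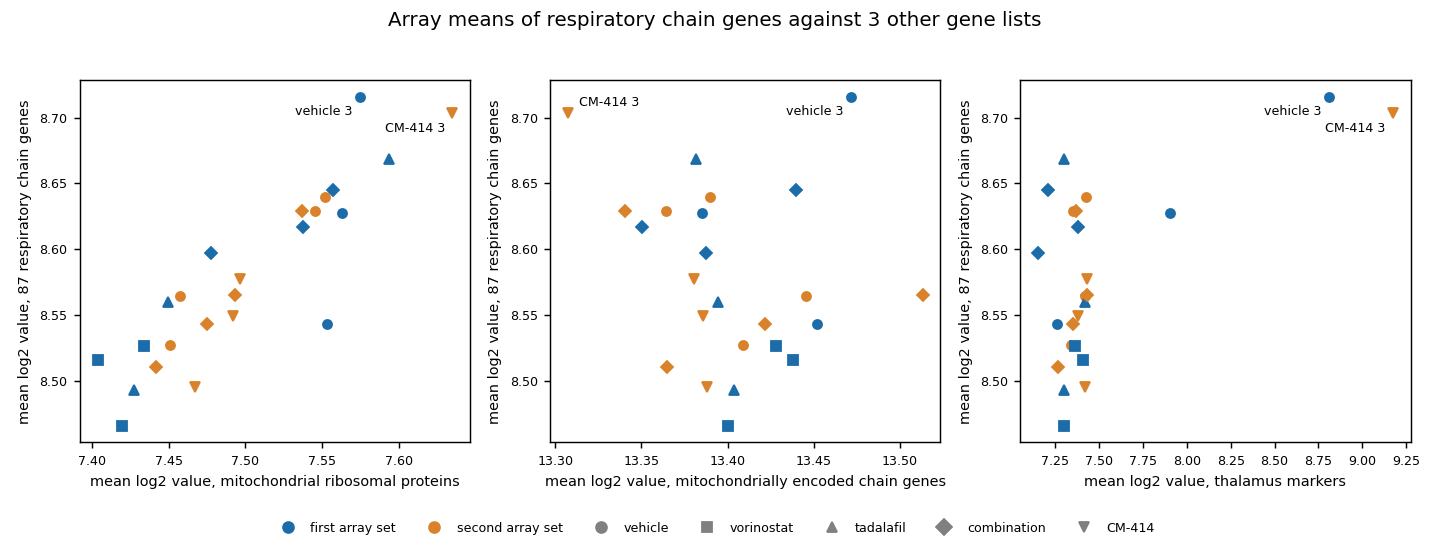
Mean log2 signal of the 87 chain genes on each array (y axis) against the mean of mitochondrial ribosomal proteins, mitochondrially encoded chain genes and thalamus markers (x axes), coloured by array set with a symbol for each group. The chain genes go with the mitochondrial ribosomal proteins (r = 0.87), not with the mitochondrially encoded genes (r = -0.23). Vehicle 3 and CM-414 3 stand apart on the thalamus axis. Lists not drawn, such as cytosolic ribosomal proteins (r = 0.61), also went with the chain genes.

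Other mitochondrial and metabolic lists gave the surroundings of these values. After vorinostat the mitochondrial ribosomal proteins had 51 of 66 genes below vehicle (median -0.11) and 14 lower at an unadjusted p under 0.05 (5.52% of all genes were), led by Mrpl52 (-0.44, SE 0.11, adjusted p = 0.322) and Mrpl28 (-0.41, SE 0.11, adjusted p = 0.336), and 21 of 25 cytosolic ribosomal proteins lay below (median -0.13). The citrate cycle list, which feeds the chain with NADH and succinate, was split 8 above to 7 below after vorinostat (median 0.023), and its pyruvate dehydrogenase gene Pdha1 and citrate cycle gene Suclg1 differed by 0.21 and -0.26. After tadalafil 13 of 15 citrate cycle genes lay above vehicle (median 0.083), with Pdha1 at 0.30 (SE 0.11) and Dlat at 0.21 (SE 0.081), both adjusted p = 0.917. After CM-414, 12 of 15 citrate cycle genes (median -0.12), 13 of 16 genes of mitochondrial import and membrane transport (median -0.15) and 12 of 13 glycolysis genes (median -0.11) lay below vehicle, led by Dlat (-0.34, SE 0.074, adjusted p = 0.0920), Tomm20 (-0.25, SE 0.064, adjusted p = 0.130) and Pgam1 (-0.29, SE 0.087, adjusted p = 0.173). The same 3 lists lay on the lower side in the second array set (14 of 15, 15 of 16 and 10 of 13), the set that held all CM-414 arrays. Regulators of mitochondrial biogenesis were split 6 above to 10 below after vorinostat, tadalafil and the combination alike, and 9 to 7 after CM-414, and their coactivator gene Ppargc1b differed by 0.20 after tadalafil (SE 0.087, adjusted p = 0.917). No gene of these lists passed the adjusted p in a comparison with vehicle, while Dlat was lower after CM-414 than after the combination (-0.41, SE 0.074, adjusted p = 0.0397).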

How the data were processed

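RNA of 24 hippocampi was hybridised to Affymetrix Mouse Gene 2.0 ST arrays. The deposited log2 values were made by the authors with RMA (robust multi-array average: background correction, quantile normalization and probe summary), which forces arrays to a common distribution, so only differences relative to the other genes can be seen. Of 41345 probe sets, 23521 named 1 gene, 1820 several and 16004 none in the platform annotation. Genes were kept above 4 in at least 2 arrays of every group, with the probe set of highest mean per gene. Signals of dim probe sets understate differences, and the number of arrays limits the precision.

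Differences were tested with limma 3.58.1 in R 4.3.3 (lmFit, eBayes) over all 24 arrays with group means only, Benjamini-Hochberg adjustment over 17089 genes and a two-sided threshold of 0.05. The array set was estimated with group as a further term. The replicates are labelled biological, but nothing more is said of their source, so p-values measure the spread between these samples. The pipeline was tested on simulated data. Replicate numbers were checked for pairing. Named genes were those past the threshold, the 4 of smallest p for each comparison with vehicle, the extremes of mean and of the combination difference in each complex, tissue-restricted isoforms and their partners, and the 3 of largest spread; others were named after their values were seen. Array sets were divided at a Snord13 value of 9. The members, lists and tests were chosen with earlier results of these data known. Alternatives changed the filter, probe set choice, normalization, array weights, prior variance, covariates and arrays included. Sequences came from RefSeq.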

Additional observations from a re-analysis of the deposited data

Results flagged for a closer look

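Values on which 1 array stood far from the rest of its group were sought in the 44 named genes and 7 means over complexes, assembly factors and all chain genes, in the groups of 4 to 7 arrays. Of 153 groups, 6 held such an array, and chance gives about 1 in 20. Vehicle 3 was high for Cox5a, at 10.44 where the next vehicle array read 10.01, and that array also held the thalamus genes; without it the vorinostat arrays still lay below all other vehicle arrays. In CM-414, replicate 4 was low for Atp5g1 (7.06, next 7.42), replicate 2 was low for Cox7b (9.12, next 9.51) and for Uqcrh (8.69, next 8.89), replicate 1 was low for Ndufa5 (7.26, next 7.36), and replicate 3, which held the thalamus genes, was high for Ndufb10 (7.49, next 7.19).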

How the results depend on the processing

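Of 2123 values over 56 results and 41 other settings, 2016 kept their direction and side of the threshold or stayed close to the reported value. With array weights 9 chain genes (1.46% of all genes) passed when the combination was compared with the added effects of both drugs, and 18 (4.94%) for the array set. A trended and robust prior variance gave 14 (2.05% of all genes) for the array set and 2 (0.521%) in the F test, and quantile normalization 1 (0.304%) in the F test. With the array set as a block, 8 chain genes lay above vehicle after vorinostat and 19 after tadalafil, and the median for the combination against the added effects of both drugs was 0.17. Within the first set 10 lay above after vorinostat, and the median for the combination against the added effects was again 0.17. With the block and without vehicle 3 and CM-414 3, 12 lay above after vorinostat. In the first set without vehicle 3, a setting chosen after the data were seen, 59 lay above vehicle after the combination (median 0.042), and Ndufaf2 (0.11) and Cox7a2l (0.013) turned in sign. Leaving out each array in turn gave 2 to 12 genes for the array set, 0 to 2 in the F test, 0 to 1 for CM-414 against vehicle, 0 to 3 for CM-414 against the combination, 21 to 42 genes above vehicle after tadalafil and 13 to 32 above for vorinostat against tadalafil. The counts of passing genes on leaving out single arrays are given without the share of all genes. The cause of these shifts was not tested.

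Whether the replicate numbers pair the arrays was left undecided, as pairs with unlike numbers were not set beside those with a shared number. Over 36 pairs with a shared number the correlation of deviations from group means ran from -0.243 to 0.734. The highest value belonged to the thalamus-rich vehicle 3 and CM-414 3. Of the 36 pairs 12 were above 0.1, and in vehicle and the combination 4 of 7 were. With the replicate block, 8 chain genes lay above vehicle after vorinostat and 17 after tadalafil, 4 (1.61% of all genes) passed for CM-414 against vehicle (Ndufs1 among them, -0.36) and 3 (1.57%) for CM-414 against the combination. This block joins CM-414 1 to 3, of the second array set, with vehicle and combination arrays of the first. Array set and CM-414 thus cannot be told apart in these CM-414 counts. Within vehicle alone, Ndufs1 differed by -0.28 between the second and the first set. The median for the combination against the added effects of both drugs was 0.18 with this block.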
